A study of Mus musculus with 10 samples.

Results

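The genes of the cytosolic ribosomal proteins were followed in the hippocampus of Dp5/Dp1 mice and their littermate controls. A gene was a member when its symbol began with Rpl or Rps followed by a digit, or was Rplp0, Rplp1, Rplp2 or Rpsa, and when at least 1 probe set carried that symbol alone. Kinases of the Rps6k family, Rps19bp1 and pseudogenes were left out. This gave 62 genes of 19938 measured, 38 of the large and 24 of the small subunit. The subunit was taken from the symbol alone, also for copies, whose products were not examined. Of 77 core ribosomal protein genes written into a roster, 54 had a probe set of their own, and the other 8 members were paralogues or retrogenes. Of the remaining 23 roster genes, among them Rpl3, Rpl11, Rpl13a, Rpl39 and Rps27, 16 had only probe sets shared with other symbols and 7 are not used here.

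Dp5/Dp1 mice carry the Dp5Yah and the Dp1Rhr duplication of mouse chromosome 16 together and are a model of Down syndrome. Dp5Yah duplicates the stretch between Cyyr1 and Clic6 and Dp1Rhr the stretch between Cbr1 and Fam3b. Total RNA came from the whole hippocampus, right and left, of male mice aged 16 weeks on a C57BL/6N background per the labels. Sample titles of this genotype mention only Dp5Yah before a bracketed reference to the double model, whereas their condition label names both duplications, which was followed here. There were 5 Dp5/Dp1 mice and 5 wild type littermates, with 1 Affymetrix Mouse Gene ST array per mouse. The same cross gave mice with only 1 of the duplications, for which these controls also served, and such mice were not analysed here. Of the genes measured between the outer genes of each interval, 25 of 82 for Dp5Yah and 12 of 31 for Dp1Rhr rose in the Dp5/Dp1 arrays, with median differences of 0.051 and 0.17 over all of them. The array signal is a log2 RMA value, so 1 unit is a doubling, and a gene is said to have risen or fallen only where limma's adjusted p over all genes was under 0.05.

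The cytosolic ribosome joins a small subunit, which holds the mRNA and reads its codons, to a large subunit, which makes the peptide bond and lets the chain out through a tunnel. Each of its proteins comes from a separate gene, and the genes are expressed together in nearly every cell. In neurons, ribosomes also work in dendrites and near synapses. Mouse ribosomal protein genes have many processed copies elsewhere in the genome, and the annotation does not say whether a probe set lies in the gene or in a copy, so the origin of the signal of a single probe set is uncertain.

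Ribosomal protein mRNAs are known for a terminal oligopyrimidine (TOP) tract, a C at the very first base followed by an unbroken run of C and T, through which mTOR signalling sets their translation. Promoter sequences of RefSeq (GRCm38.p6) were listed for 50 of the 62 members. A C followed by at least 4 pyrimidines stood at an annotated start of 10 of these 50 genes, or 20%, against 3.01% of all 27025 genes in the same table. Only the annotated start base was searched, so a tract at a start that lies elsewhere was not counted. The 20% is therefore not the share of members whose mRNA has a TOP tract. These members are shown because they belong to the translational class that the family defines, although the arrays measure the amount of mRNA and not its translation. Each line runs 5′ to 3′ on the gene's strand from 10 bases before the annotated start to 20 bases after it, with the tract in capitals.
Rps6: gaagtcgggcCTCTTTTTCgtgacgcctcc
Rps15a: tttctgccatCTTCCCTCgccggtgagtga
Rps18: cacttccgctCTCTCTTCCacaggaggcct
Rpl28: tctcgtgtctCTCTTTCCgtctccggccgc
Rpl38: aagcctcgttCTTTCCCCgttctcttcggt
Rplp2: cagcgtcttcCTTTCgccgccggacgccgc
Rpl32l: aaatgaccagCTTCTTCCTTggtgctgcct

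The windows lie on GRCm38.p6 at chr4:86857348-86857377 (minus strand) for Rps6, chr7:118116128-118116157 (minus) for Rps15a, chr17:33955646-33955675 (minus) for Rps18, chr7:4792955-4792984 (plus) for Rpl28, chr11:114668570-114668599 (plus) for Rpl38, chr7:141447641-141447670 (plus) for Rplp2 and chr10:20208429-20208458 (plus) for Rpl32l. The last of these belongs to a copy of Rpl32 named as a gene of its own. The tract was 9 bases long in Rps6 and Rps18, 8 in Rps15a, Rpl28 and Rpl38, 5 in Rplp2 and 10 in Rpl32l. The other members with a tract at the start were Rpl14, Rps10 and Rps21. The motif CCGGAAG, the core bound by ETS family factors, was found on either strand in the listed promoter of 19 of the 50 members, or 38%, against 9.93% of all genes. Its complementary strand reads CTTCCGG, so it can overlap a tract. A match is only a description of the letters.

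None of the 62 members rose or fell in Dp5/Dp1 hippocampus. By limma the count of members with an adjusted p under 0.05 was 0, and the share of all genes that passed was 0.206% (41 of 19938, of which 40, or 0.201%, were higher in Dp5/Dp1). At an unadjusted p under 0.05 the count was 1 of 62, the retrogene Rpl10l, against 6.06% of all genes. By FCROS, the rank method of the study, the count was again 0, against 5.06% of all genes in the outer tails of its f-value. The study also used GAGE, a gene set method, and reported ribosomal pathways as altered in every model, Dp5/Dp1 among them. No gene set was tested here. In no member did the 5 Dp5/Dp1 arrays separate from the 5 control arrays, as they did in 1.08% of all genes. By the RefSeq position of the gene, no member lies in either duplicated interval. Whether a probe set lies in a copy there is not known. The pair on chromosome 16 were Rpl24 (chr16:55966275-55971437) and Rpl39l (chr16:10170197-10174911).

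The intervals around the differences were narrow in array signal. RMA compresses changes of dim probe sets, so the signal can understate a change in mRNA. All genes measured in the Dp5Yah and Dp1Rhr stretches had median differences of only 0.051 and 0.17. The 95% interval lay inside a 1.5-fold change in either direction for all 62 members, and inside 0.3 on the log2 scale, a 1.23-fold change, for 61. The exception was Rpl12, one of the 7 members among the dimmest 40% of all genes, whose interval ran from -0.35 to 0.06. Within 0.2, a 1.15-fold change, lay 32 of 38 large and 17 of 24 small subunit members. The median spread between arrays of 1 group, as a pooled SD, was 0.067 for large and 0.11 for small subunit members, against 0.080 for all genes above the dimmest 40%.

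**Figure D1:**
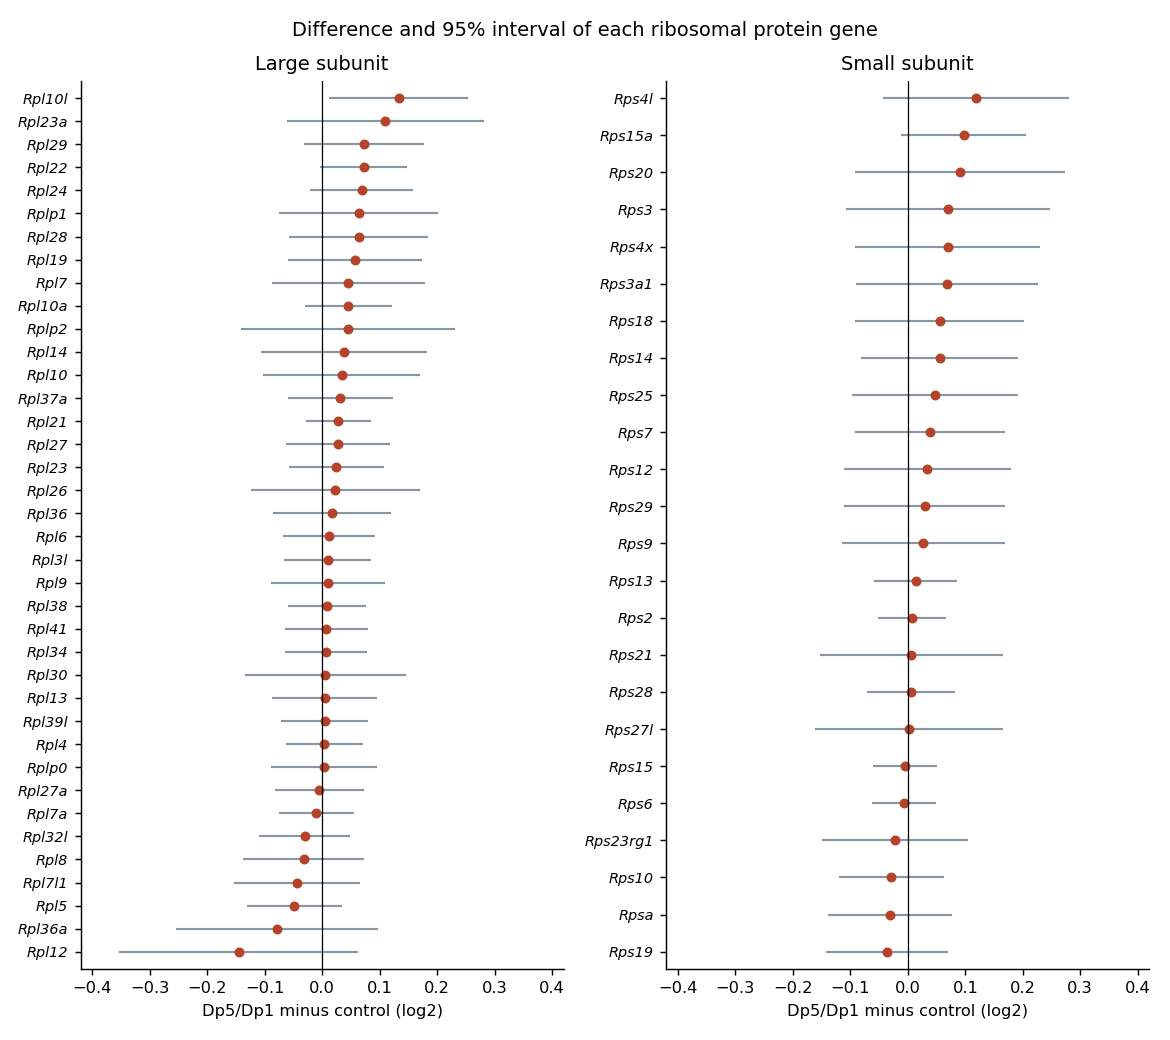
Difference between the mean of 5 Dp5/Dp1 and 5 control arrays (log2, horizontal axis) for each ribosomal protein gene, large subunit on the left and small subunit on the right, with bars for the 95% interval of the limma fit. Only the interval of Rpl10l, from 0.01 to 0.25, leaves out 0, and its adjusted p is 0.806.

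Without a threshold, most members had a slightly higher mean in Dp5/Dp1 arrays. This held for 48 of 62 members, or 77.4%, against 51.5% of all genes, with 30 of 38 in the large and 18 of 24 in the small subunit. The median difference was 0.015 over the large and 0.028 over the small subunit, against 0.0019 over all genes, or -0.0021 over those above the dimmest 40%. The count depended on single arrays. Without control replicate 2 it was 33 of 62 with a median of 0.0010, and without Dp5/Dp1 replicate 3 it was 34 of 62 with a median of 0.0014, while without Dp5/Dp1 replicate 5 it was 38 of 62. It was also 37 of 62 once each array was centred on the median of all genes. Members share the same 10 arrays and moved together on them, so the count of members is not a count of independent observations.

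Averaged over its 38 genes, the large subunit had 10.28, 10.25, 10.34, 10.26 and 10.31 in Dp5/Dp1 replicates 1 to 5, against 10.28, 10.19, 10.30, 10.29 and 10.29 in control replicates 1 to 5. The small subunit, over 24 genes, had 10.44, 10.36, 10.55, 10.37 and 10.50 in the Dp5/Dp1 arrays and 10.46, 10.32, 10.42, 10.45 and 10.42 in the control arrays. In both subunits Dp5/Dp1 replicates 3 and 5 were the highest of all 10 arrays, control replicate 2 was the lowest and the groups overlapped. The means were 10.29 ± 0.04 in Dp5/Dp1 and 10.27 ± 0.04 in control arrays for the large subunit, a difference of 0.018, and 10.44 ± 0.08 in Dp5/Dp1 and 10.41 ± 0.05 in control arrays for the small subunit, a difference of 0.029 (SD, n = 5 each). Both differences were smaller than 1 SD. With the median signal over members in place of the mean they were 0.079 for the large subunit, which is more than 1 SD, and 0.048 for the small subunit. The large subunit value rests on the few genes of middle signal, such as Rpl23a (0.11), Rpl24 (0.069), Rpl23 (0.025) and Rpl36 (0.018). It is not the median of the 38 differences, which was 0.015. Without control replicate 2 the large subunit difference was -0.0017 and the small subunit difference 0.0068.

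**Figure D2:**
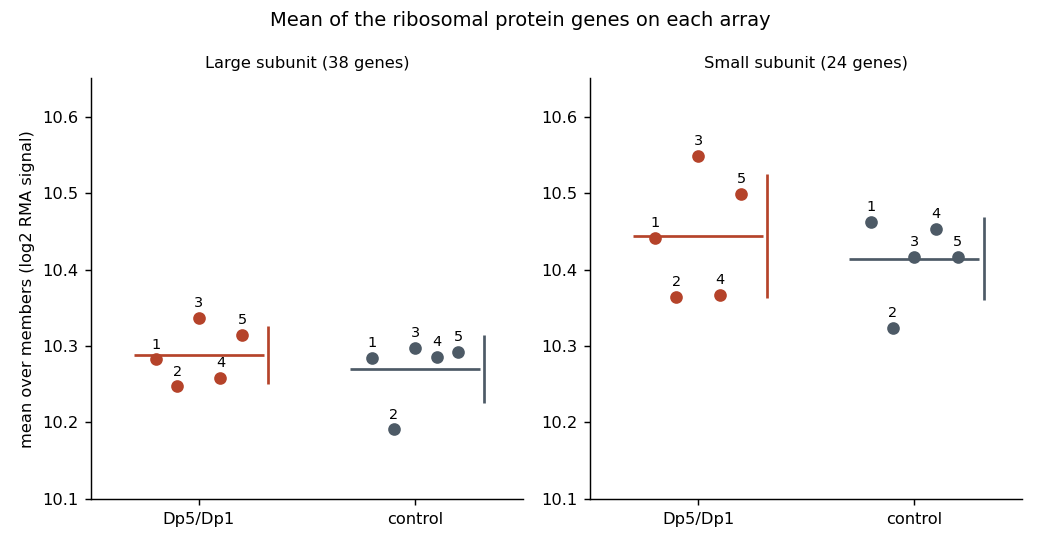
Mean log2 RMA signal over the large subunit genes (left) and the small subunit genes (right) on each array, numbered by replicate, with the group mean as a horizontal line and ± 1 SD as a vertical bar. The 5 Dp5/Dp1 arrays span 10.25 to 10.34 and 10.36 to 10.55, and control replicate 2 lies below all others at 10.19 and 10.32.

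The 2 subunits were followed apart to see whether one moved without the other. The large minus small subunit mean was -0.16, -0.12, -0.21, -0.11 and -0.18 in the Dp5/Dp1 arrays and -0.18, -0.13, -0.12, -0.17 and -0.12 in the control arrays. It averaged -0.16 ± 0.04 in Dp5/Dp1 and -0.14 ± 0.03 in control arrays (SD, n = 5 each), a difference of -0.011 that was smaller than the spread in either group. Its sign was not stable, with 0.0025 without Dp5/Dp1 replicate 3. It was 0.031 with the median signal over members, which rests on the few genes of middle signal. Dp5/Dp1 replicates 3 and 5, which were high in both subunits, had the most negative values, since their small subunit genes deviated further.

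The variation within groups was shared across the family. On Dp5/Dp1 replicate 3, 56 of 62 members lay above their Dp5/Dp1 mean, against 49.6% of all genes, and 22 members, or 35.5%, had their highest value of all 10 arrays there, against 8.13% of all genes. On Dp5/Dp1 replicate 4 only 10 of 62 members lay above the Dp5/Dp1 mean, and on replicate 2 only 18. Among the controls, 12 of 62 members lay above the control mean on replicate 2, against 45 on replicate 4 and 44 on replicate 1. That control array held the lowest of the 10 values for 27 members, or 43.5%, against 9.24% of all genes. The arrays as a whole were close, with a correlation across genes of 0.996 to 0.999 between any pair.

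**Figure D3:**
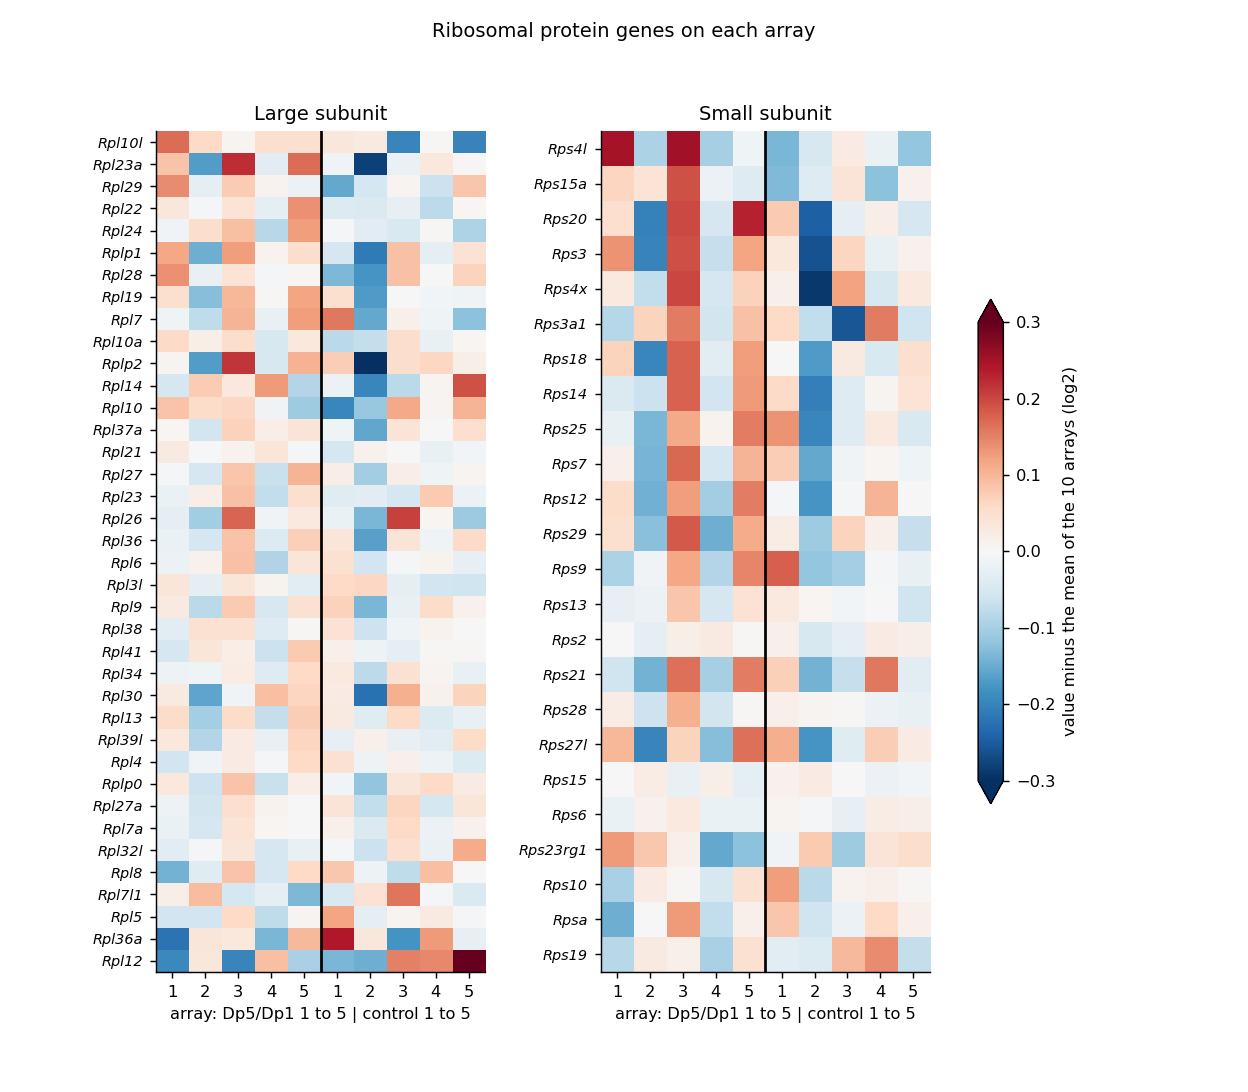
Value of each member on each array minus its mean over the 10 arrays (log2, red above and blue below), with the 5 Dp5/Dp1 arrays left of the line and the 5 control arrays right of it, and members ordered from the highest to the lowest difference. Columns of 1 colour run through most small subunit genes, red at Dp5/Dp1 replicate 3 and blue at control replicate 2, while Rps6, Rps15 and Rps2 stay near 0 on all arrays.

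Rplp0, Rplp1 and Rplp2 form the stalk of the large subunit, which calls elongation factors to the ribosome. Rplp0, often taken as a reference gene for expression, had 12.04, 11.95, 12.10, 11.95 and 12.03 in Dp5/Dp1 arrays against 12.01, 11.90, 12.05, 12.07 and 12.04 in control arrays. The groups overlapped throughout, and the difference of 0.0027 ± 0.042 (SE) was the smallest of the large subunit in size. Rplp1 had 12.64, 12.38, 12.65, 12.54 and 12.58 in Dp5/Dp1 arrays against 12.48, 12.31, 12.61, 12.50 and 12.57 in control arrays, a difference of 0.064 ± 0.063. Rplp2, a dim member, had 6.62, 6.44, 6.82, 6.56 and 6.71 in Dp5/Dp1 arrays and 6.68, 6.29, 6.66, 6.67 and 6.62 in control arrays, a difference of 0.045 ± 0.085. In all 3 the lowest array was control replicate 2 and the highest Dp5/Dp1 replicate 3. Rpl19 and Rps18, also used as reference genes, differed by 0.057 ± 0.053 and 0.056 ± 0.067.

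Rpl10l is a retrogene of the X-linked Rpl10, known for its role in male germ cells. It had 6.67, 6.56, 6.51, 6.55 and 6.55 in Dp5/Dp1 arrays and 6.53, 6.53, 6.30, 6.50 and 6.30 in control arrays. The groups touched at Dp5/Dp1 replicate 3 and control replicates 1 and 2. Its difference of 0.13 ± 0.055 (SE) was the highest of the 62, with an unadjusted p of 0.0330 and an adjusted p of 0.806, and it is a dim gene. Rpl10 itself, which joins the large subunit late in its assembly, differed by 0.034 ± 0.062, with control replicates 3 and 5 above all Dp5/Dp1 arrays. Among the other copies, Rpl3l, the striated muscle form of Rpl3, differed by 0.0096 ± 0.035, Rpl39l, a germline form of Rpl39, by 0.0042 ± 0.035 and Rps27l, a p53-induced relative of Rps27, by 0.0023 ± 0.075. Rpl7l1, which takes part in assembly, differed by -0.044 ± 0.050, Rpl32l by -0.030 ± 0.036 and Rps23rg1 by -0.022 ± 0.058. The adjusted p was 0.911 or more for these 6.

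Rps4l, a copy of the X-linked Rps4x, was the highest of the small subunit. It had 9.10, 8.76, 9.10, 8.75 and 8.84 in Dp5/Dp1 arrays against 8.71, 8.80, 8.88, 8.83 and 8.74 in control arrays. Dp5/Dp1 replicates 1 and 3 stood above all controls and the other 3 lay among them, so the SD was 0.18 in Dp5/Dp1 and 0.068 in control arrays. The difference was 0.12 ± 0.074 (adjusted p = 0.845). Rps4x differed by 0.069 ± 0.074, and its lowest array was control replicate 2.

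Of the small subunit proteins, Rps15a had the lowest unadjusted p, 0.0758. It had 9.57, 9.54, 9.69, 9.48 and 9.47 in Dp5/Dp1 arrays against 9.37, 9.47, 9.54, 9.38 and 9.52 in control arrays. All 5 Dp5/Dp1 values were above the control mean, the groups overlapped, and the difference was 0.097 ± 0.050 (adjusted p = 0.832). Rps20 and Rps3 sit on the head of the subunit, and Rps3 lines the entry of the mRNA channel. Rps20 differed by 0.091 ± 0.084 and Rps3 by 0.070 ± 0.081, with the widest spread within groups of the small subunit. Rps3 had 10.60, 10.27, 10.66, 10.40 and 10.59 in Dp5/Dp1 arrays and 10.50, 10.21, 10.53, 10.45 and 10.48 in control arrays, so that replicate 2 was the lowest of each group. Rps3a1 differed by 0.068 ± 0.072.

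Rps6, the subunit protein phosphorylated by S6 kinases after neuronal activity, was almost the same on every array. It had 13.08, 13.11, 13.13, 13.08 and 13.08 in Dp5/Dp1 arrays and 13.11, 13.10, 13.08, 13.12 and 13.12 in control arrays, a range of 0.056 over all 10. Its difference was -0.0070 ± 0.026. Rps15, at -0.0047 ± 0.025, and Rps2, which lies by the mRNA entry, at 0.0073 ± 0.027, spanned ranges of 0.053 and 0.076. These 3 varied little on the arrays where most of the small subunit was high or low. The probe sets of Rps6, Rps15 and Rpl21, whose range was 0.089, had the highest signals of the 62, and whether the upper end of the signal scale narrows their spread was not tested.

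Several members are genes mutated in human Diamond-Blackfan anaemia. Rps19, the most often affected, had 9.23, 9.34, 9.33, 9.22 and 9.36 in Dp5/Dp1 arrays and 9.28, 9.27, 9.41, 9.45 and 9.24 in control arrays. Its difference of -0.037 ± 0.049 was the lowest of the small subunit. Rpl5, which with Rpl11 binds the p53 regulator Mdm2, had 11.12, 11.12, 11.24, 11.10 and 11.19 in Dp5/Dp1 arrays and 11.30, 11.15, 11.19, 11.21 and 11.18 in control arrays. Of the Dp5/Dp1 values 4 lay below the control mean, the groups overlapped, and the difference was -0.048 ± 0.038 (adjusted p = 0.875). Rps10 differed by -0.029 ± 0.042, Rps7 by 0.039 ± 0.060 and Rpl26 by 0.023 ± 0.067.

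Rpsa, the laminin receptor protein of the small subunit, differed by -0.032 ± 0.049. Rpl22, which is not essential to the ribosome and also acts on RNA outside it, had 8.42, 8.38, 8.43, 8.36 and 8.52 in Dp5/Dp1 arrays against 8.35, 8.34, 8.36, 8.31 and 8.39 in control arrays. Every Dp5/Dp1 value was above the control mean of 8.35, replicates 2 and 4 lay within the range of the controls, and the difference was 0.073 ± 0.035 (unadjusted p = 0.0593, adjusted p = 0.824). Rpl24 differed by 0.069 ± 0.041 and Rpl29 by 0.073 ± 0.048. Rpl38, needed in the mouse for the patterning of the axial skeleton, differed by 0.0091 ± 0.031.

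Rpl23a, beside the exit of the tunnel where the signal recognition particle docks, had 10.92, 10.66, 11.05, 10.80 and 11.00 in Dp5/Dp1 arrays against 10.82, 10.55, 10.81, 10.86 and 10.84 in control arrays. Dp5/Dp1 replicates 1, 3 and 5 stood above all controls and replicates 2 and 4 stood below all controls except the lowest. The difference was 0.11 ± 0.078 (adjusted p = 0.864). At the lower end, Rpl36a on chromosome X had 11.39, 11.65, 11.64, 11.47 and 11.71 in Dp5/Dp1 arrays and 11.85, 11.65, 11.43, 11.74 and 11.59 in control arrays, a difference of -0.079 ± 0.080. Rpl12, part of the stalk base, had 5.91, 6.13, 5.90, 6.19 and 6.00 in Dp5/Dp1 arrays and 5.96, 5.95, 6.25, 6.24 and 6.45 in control arrays. Its difference of -0.15 ± 0.095 was the lowest of all members (adjusted p = 0.852).

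The 10 members with a TOP tract at the annotated start had a median difference of 0.023, from -0.030 for Rpl32l to 0.097 for Rps15a, with 7 of 10 higher. The other 40 members with a listed promoter, in which no tract stood at an annotated start, had a median of 0.0095, with 30 higher. This split rests on the annotated starts and does not part TOP mRNAs from other mRNAs. Both ranges overlapped and no test was made.

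The members carried 218 probe sets, up to 14 for Rps12, and 23 members had only 1. Over the 218, no probe set passed limma's adjusted p, fitted over all 21789 probe sets with 1 symbol, of which 57 passed. At an unadjusted p under 0.05 there was 1, against 5.98% of all. A higher mean in Dp5/Dp1 was found for 177 and a lower one for 41, with a median of 0.028. Over all genes the share with a higher mean was 51.5%. Of 39 members with several probe sets, 24 had all of them higher in Dp5/Dp1, 4 all lower and 11 of both signs. The 13 probe sets of Rpl23a ran from 0.071 to 0.11 and the 14 of Rps12 from 0.018 to 0.059, whereas the 8 of Rps6 ran from -0.0070 to 0.028. Probe sets of 1 symbol can match the same transcripts, so they are not independent.

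Genes that work beside the ribosome were read in the same fit. Of all genes, 0.206% were called by limma and 6.06% had an unadjusted p under 0.05. By FCROS 5.06% passed, and 51.5% had a higher mean in Dp5/Dp1. Of 51 translation factors measured, 0 rose and 0 fell by limma. At an unadjusted p under 0.05 there were 1 higher and 1 lower, by FCROS 2 passed, and 31 had a higher mean and the median was 0.011. The lowest unadjusted p belonged to Eif2s3x, the X-linked gamma subunit of the initiation factor that brings the initiator tRNA, at -0.10 ± 0.033 (adjusted p = 0.737), and to Eif3i, a subunit of another initiation factor, at 0.13 ± 0.057 (adjusted p = 0.812). Of 105 ribosome biogenesis genes, 0 rose and 0 fell by limma. At an unadjusted p under 0.05 there were 2 higher and 2 lower, by FCROS 5 passed, 54 had a higher mean and the median was 0.0057. Tex10, part of a complex that matures the large subunit, was at -0.11 ± 0.034 and Nol9, a kinase of rRNA processing, at 0.095 ± 0.030 (adjusted p = 0.640 and 0.714). Fau, which encodes the small subunit protein Rps30 as a fusion, followed the family. It had 12.36, 12.25, 12.42, 12.26 and 12.43 in Dp5/Dp1 arrays and 12.41, 12.14, 12.33, 12.38 and 12.33 in control arrays, a difference of 0.024 ± 0.056. Rack1 is not used here.

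The lists of the mitochondrion lay further from 0. The mitochondrial ribosome makes the few proteins encoded by mitochondrial DNA. Of 77 of its genes, 65 had a higher mean in Dp5/Dp1 and the median was 0.048. By limma 0 were called, 11 had an unadjusted p under 0.05, all higher, and 10 passed by FCROS. The shares of all genes were the same 0.206%, 6.06% and 5.06%. Mrps6, which lies in the Dp5Yah interval, was at 0.45 ± 0.086 (adjusted p = 0.107), and Mrps17, which does not, at 0.16 ± 0.046 (adjusted p = 0.640). Of 93 respiratory chain genes 77 had a higher mean and the median was 0.038, where 51.5% of all genes had a higher mean. At an unadjusted p under 0.05 there were 3, and by FCROS 5 passed, all higher, near or under the same shares of all genes. By limma 1 rose, Atp5o (0.47 ± 0.049, adjusted p = 0.00107), which is also in the Dp5Yah interval. The difference between these medians and those of the cytosolic ribosomal proteins was not tested.

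**Figure D4:**
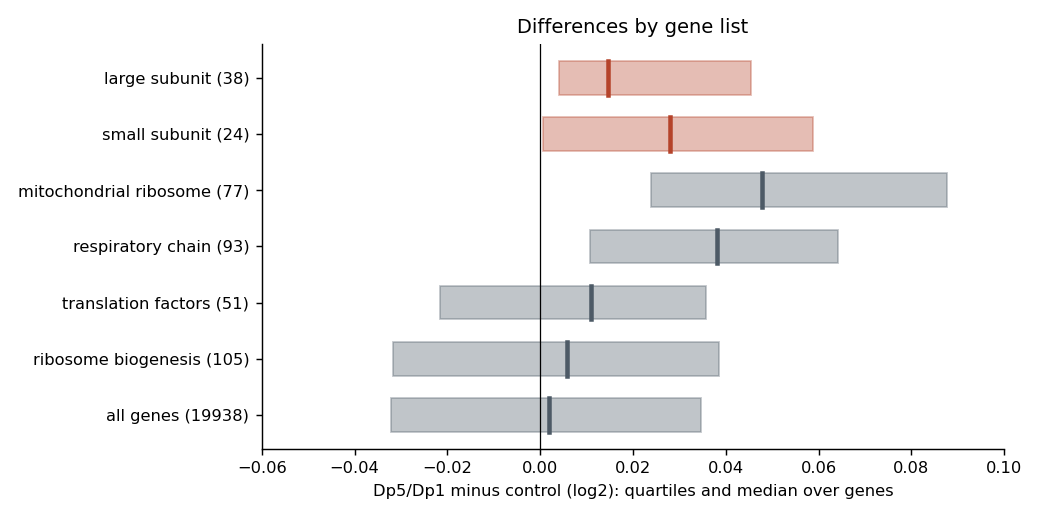
Differences between Dp5/Dp1 and control arrays (log2, horizontal axis) over the genes of each list, with the box from the lower to the upper quartile and the median as a thick line; the number of genes is in brackets. The medians are 0.015 for the large and 0.028 for the small subunit, 0.048 and 0.038 for the mitochondrial ribosome and the respiratory chain, and 0.0019 for all genes.

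Markers of neighbouring tissue varied between arrays. Markers of 1 list share the same arrays, so they are not independent. The list means differed between Dp5/Dp1 and control by -0.34 ± 0.51 (SE) for choroid plexus and 0.34 ± 0.22 for medial habenula. For blood the difference was 0.18 ± 0.080. All 15 choroid plexus markers had a lower mean in Dp5/Dp1 (median -0.35), all 11 medial habenula markers a higher one (median 0.26) and both blood markers measured of 8 a higher one (median 0.18), with 0 called in each list. Limma called 0.206% of all genes. At an unadjusted p under 0.05 there were 0, 1 and 1, against 6.06% of all genes. By FCROS there were 1, 4 and 1, against 5.06% of all genes. A higher mean in Dp5/Dp1 was found for 51.5% of all genes. In a bulk sample, fewer cells of a type and less RNA per cell cannot be told apart. Of 16 markers of hippocampal neurons all were measured, and their mean signal lay between 10.15 and 10.24 in Dp5/Dp1 and between 10.16 and 10.25 in control arrays. A lower mean in Dp5/Dp1 was found for 10 of the 16 (median -0.038). None was called, 1 was lower at an unadjusted p under 0.05 and 1 was higher by FCROS. The 15 choroid plexus markers, of 16 written, had means from 6.82 to 8.27 in Dp5/Dp1 and from 6.71 to 8.66 in control arrays. They were highest on control replicates 1 and 4, at 8.66 and 8.48, whose subunit means lay below those of Dp5/Dp1 replicates 3 and 5. They were also high on Dp5/Dp1 replicates 3 and 5, which had the highest ribosomal protein means. Control replicate 2 was the lowest for both. Within Dp5/Dp1 the choroid plexus means ran from high to low in the order of replicates 5, 3, 2, 1 and 4. The means of both subunits ran there in the order of replicates 3, 5, 1, 4 and 2. Among the controls the choroid plexus means ran from high to low in the order of replicates 1, 4, 5, 3 and 2. This was also the order of the small subunit means, although replicates 5 and 3 were both at 10.42 there. By group, the choroid plexus mean was lower in Dp5/Dp1 and both subunit means were slightly higher. In the large subunit, control replicate 3 was instead the highest control. The 11 medial habenula markers had means from 6.79 to 7.90 in Dp5/Dp1 and from 6.76 to 7.16 in control arrays, highest on Dp5/Dp1 replicates 2 and 5. The blood markers had means from 7.11 to 7.51 in Dp5/Dp1 and from 7.03 to 7.25 in control arrays. With the choroid plexus mean as a covariate, 0 of 62 members were called, 7 had an unadjusted p under 0.05, all higher, against 7.07% of all genes in that fit, and the median difference was 0.037. With the habenula mean added, 0 were called and 6 had an unadjusted p under 0.05, 5 of them higher, against 6.95% of all genes. The subunit differences in these fits were 0.029 and 0.033 for the large and 0.052 and 0.062 for the small subunit, still within 1 SD of the values without a covariate. Without Dp5/Dp1 replicates 2 and 5, 0 members were called, 1 had an unadjusted p under 0.05 and 44 of 62 had a higher mean. Whether tissue makeup sets the shared variation of the family was not tested.

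**Figure D5:**
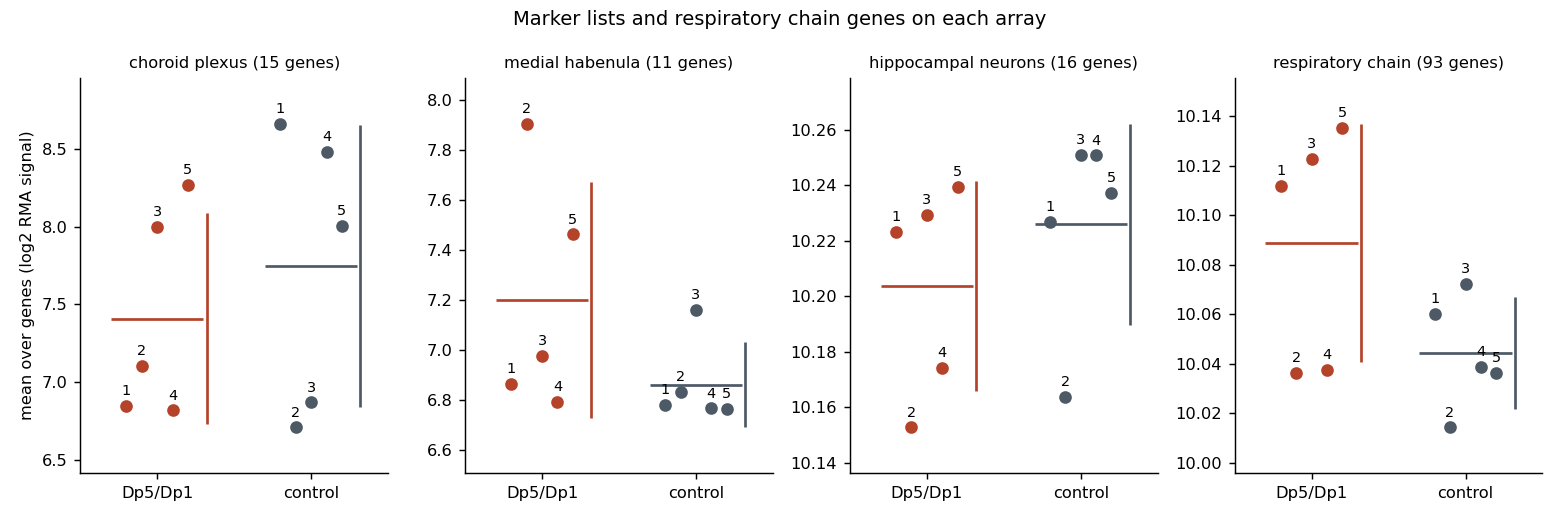
Mean log2 RMA signal of choroid plexus, medial habenula and hippocampal neuron markers and of respiratory chain genes on each array, numbered by replicate, with the group mean as a horizontal line and ± 1 SD as a vertical bar; each panel has its own scale. Choroid plexus markers span 6.82 to 8.27 in Dp5/Dp1 and 6.71 to 8.66 in control arrays, and control replicate 2 is the lowest array for them and for the respiratory chain genes.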

How the data were processed

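Hippocampal RNA of 5 Dp5/Dp1 and 5 control mice was hybridised to Affymetrix Mouse Gene ST arrays. The log2 values deposited by the authors had been through RMA, which corrects background, equalises the distributions of the arrays and gives 1 value per probe set. They keep no count of molecules and RMA compresses changes of dim probe sets. The number of arrays limits the precision. RMA, limma and mm10 are named in the submitters' processing notes, with versions not given in the sources used here. Labels and methods differ on the C57BL/6 substrain and on the RNA input. Of 35556 probe sets, 21789 had 1 gene symbol, 1621 several and 12146 none here. Each of 19938 genes was represented by its brightest probe set on average. Positions came from RefSeq GRCm38.p6.

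Groups came from the condition label. Genes were tested two-sided in limma 3.58.1 (R 4.3.3; lmFit, eBayes) with Benjamini-Hochberg adjustment over all genes, tested on simulated data. Subunit means had no test. FCROS was rewritten from its description. Named were called members, in each subunit those with the lowest p (5), the highest and lowest difference (3 each) and the widest spread (2), members with a known role or paralogues, and in each related list up to 4 called genes or the 2 with the lowest p. Further members given for their role (Rps2, Rps7, Rps15, Rps18, Rps23rg1, Rpl14, Rpl19, Rpl21, Rpl26, Rpl28, Rpl32l, Rps21) and the motif counts were chosen after their values were seen. Members and lists were chosen with earlier results of these data known. Alternatives were another gene filter, normalization, centring, probe set rule, variance model, array weights, a replicate block, each array left out, marker covariates, FCROS and a looser threshold.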

Additional observations from a re-analysis of the deposited data

Results flagged for a closer look

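On control replicate 2 the large subunit mean of 10.19 stood apart from the other 4 control arrays, which lay between 10.28 and 10.30. The same array stood apart for 3 members. Rpl23a was at 10.55 there, against 10.81 to 10.86 on the other controls, Rplp2 was at 6.29 against 6.62 to 6.68, and Rps3 was at 10.21 against 10.45 to 10.53. Each was marked because the gap to the nearest array of the group was over 0.71 of the group's whole range. Of 60 groups of 5 values examined, 4 were marked, and chance marks about 1 in 20. All 4 came from 1 array, and the members share it, so they are not separate signs. No Dp5/Dp1 array was marked. The cause was not tested.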

How the results depend on the processing

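The count of ribosomal protein genes called was 0 under every alternative run, including FCROS, an adjusted p under 0.1, and each array left out, with 0 to 7 members at an unadjusted p under 0.05 in the limma fits. The lowest adjusted p of a named member under any alternative was 0.630. All genes called numbered 41, and 26 with a replicate block, 25 with covariates for choroid plexus and habenula and 21 without Dp5/Dp1 replicates 2 and 5. By FCROS 1008 passed, a number set largely by its cut, which takes the outer tails of a distribution fitted to all genes. The related lists had 1 call, and 2 with the replicate block or the choroid plexus covariate, where Mrps6 was also called (adjusted p = 0.0398 and 0.0264, differences of 0.45 and 0.48), and 22 by FCROS. Without 1 array at a time, all genes called ran from 29 to 39 and related calls stayed at 1. The large subunit difference of 0.018 ran from -0.0017 to 0.028, the small subunit difference of 0.029 from 0.0032 to 0.049 and the large minus small difference of -0.011 from -0.023 to 0.0025 in these fits, and with both marker covariates they were 0.033, 0.062 and -0.030, in each case less than 1 SD from the value with all arrays. With the median over members in place of the mean, the large subunit difference was 0.079 and the large minus small difference 0.031. That median rests on the few genes of middle signal. The variance model has no bearing on these means. Of 27 named members, 9 changed sign under at least 1 alternative, and none by as much as the spread between arrays. Replicate numbers do not pair the mice in the labels, and deviations of same-numbered arrays correlated from -0.35 to 0.29, so the block of 0 called members, with 4 at an unadjusted p under 0.05, rests on a shared number only.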

Other observations

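Of the kinases that share the Rps6 name, which are not ribosomal proteins, 6 were read. None of these 6 was called by limma, and none had an unadjusted p under 0.05 or passed by FCROS. The shares of all genes were 0.206%, 6.06% and 5.06%. Rps6ka3 averaged 8.87 ± 0.22 in Dp5/Dp1 and 8.95 ± 0.09 in control arrays, and Rps6kb2 averaged 8.13 ± 0.29 in Dp5/Dp1 and 8.22 ± 0.22 in control arrays (SD, n = 5 each). Rps6ka5 differed by 0.070 ± 0.065 (SE), Rps6ka6 by 0.0091 ± 0.049, Rps6kc1 by -0.024 ± 0.041 and Rps6kl1 by 0.036 ± 0.062, with an adjusted p of 0.892 or more for each of the 6. Rps19bp1, which binds Rps19, differed by 0.066 ± 0.052 (adjusted p = 0.875).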
